A study of Mus musculus with 4 samples.

Results

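The calcitonin gene-related peptide (CGRP) system is described here through 7 genes: the peptide precursor genes Calca, Calcb and Adm, and the receptor genes Calcrl, Ramp1, Ramp2 and Ramp3. They were taken by the gene names printed in the scanner files, which give them 11 probes, and all 7 were among the 29114 genes and named transcripts tested, of 34787 on the array. The samples were lumbar spinal cords of adult male ICR mice, an outbred stock, 8 weeks old, collected 10 days after surgery. A tight silk ligature was placed on the L5 spinal nerve of 2 mice (spinal nerve ligation, SNL, a model of neuropathic pain), and 2 sham mice had that nerve exposed but not ligated. The labels describe the tissue both as L5 cord and as segments L4 to L5, after saline perfusion, and do not say which side was taken. The comparison asks how these genes differ in the cord segment that the injured nerve serves. Each array carries the RNA of 1 mouse, so every error below rests on 2 mice per group.

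CGRP is a vasodilator peptide and a transmitter of pain fibres. Most CGRP peptide in the dorsal horn arrives in the axons of sensory neurons whose cell bodies, and most of whose mRNA, lie in the dorsal root ganglia, outside the cord. Within the cord, motor neurons of the ventral horn transcribe CGRP genes. Calca is spliced to give either calcitonin or alpha-CGRP, and Calcb is a separate gene that encodes beta-CGRP. The receptor protein encoded by Calcrl, a G protein-coupled receptor, works only in a pair with a receptor activity modifying protein: with RAMP1 it binds CGRP, and with RAMP2 or RAMP3 it binds adrenomedullin, the vasoactive peptide encoded by Adm. The pair signals mainly through Gs and cyclic AMP.

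The probes decide which transcript each value stands for, so a 30-base stretch of each of the 8 probes that the results turn on is printed here from the scanner files, 5′ to 3′. Capitals mark the hexamer AATAAA, a common polyadenylation signal that lies near the 3′ ends of messages. It was searched in the probe strand only and is held by 10.1% of all 55681 probes.
Calcb, transcript NM_054084, probe bases 1 to 30: ccgttgttacttgagaggaatgaaaccaag
Calca, CGRP transcript NM_001033954, probe bases 23 to 52: gactctgtatccAATAAAcatgacagcatg
Calca, calcitonin transcript NM_007587, probe bases 1 to 30: aagaatggtatctgaaatccccagtgggtg
Calcrl, transcript NM_018782, probe bases 1 to 30: cactttaaccctctttataacttctcttgt
Ramp1, transcript variant 1, exon-joining probe, bases 1 to 30: agacgctatggtgtgactggggaaagacca
Ramp1, transcript variant 1, second probe, bases 1 to 30: tgggagtggatctccatccattcctcaaaa
Ramp1, transcript variant 3, probe bases 1 to 30: cttcttaggtgttccccctctttctatact
Ramp2, transcript NM_019444, probe bases 30 to 59: tgtagtctttaaAATAAAgttatgtttttg

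On the mouse build mm9, which the scanner files use, the Calcb probe lies at chr7:121866534-121866593 on the plus strand. The probe of the Calca CGRP transcript lies at chr7:121775204-121775263 and that of the calcitonin transcript at chr7:121776948-121777007, both on the minus strand. The longest run of bases that the Calcb probe shares with either Calca probe is 5, so the probes themselves are dissimilar. No probe was compared with the full message of the other gene, so whether it also binds that message was not tested. The Calcrl probe lies at chr2:84173073-84173132 on the minus strand. The exon-joining Ramp1 probe has 60 bases spread over 26256 bases at chr1:93093453-93119708, and the second variant 1 probe lies at chr1:93121428-93121487. The variant 3 probe of Ramp1 is at chr1:93103294-93103353, Ramp2 at chr11:101109501-101109560 and Adm at chr7:117773088-117773147. Both Ramp3 probes read almost the same stretch, chr11:6577416-6577475 and chr11:6577424-6577483, and share 52 bases. Whether a probe lies in a coding or an untranslated part was not analysed here.

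Values below are log2 signals relative to the 75th percentile of the same array, and changes are SNL minus sham. Because probes differ in brightness for reasons other than abundance, no gene's level is set against another's. Spots well above background made up 74.9% and 78.1% of each SNL array and 82.1% and 81.9% of each sham array. All 4 arrays lay on 1 slide and shared 1 scan, but the SNL arrays lay in row 2 and the sham arrays in row 1, so slide row and surgery cannot be told apart. Of 13 general markers of lumbar cord neurons, glia and position, 13 were measured in both groups, with changes from -0.19 to 0.43. Summed Schwann cell markers were 12.3 and 7.62 in SNL mice, against 9.48 in sham mouse 1 and 1.27 in sham mouse 2, in units of the 75th percentile signal. Sham mouse 2 thus held little signal of Schwann cells, the glia of nerve roots, and its summed meningeal signal was also the lowest, at 15.6 against 26.3 in sham mouse 1 and 26.4 and 18.1 in SNL mice. Values without this mouse are given for the members below.

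No member passed a Benjamini-Hochberg adjusted p of 0.05 in limma, which 0.172% of all genes tested did (0.161% higher and 0.0103% lower in SNL mice). At an unadjusted p under 0.05 there were 2 of 7 members, Calcb lower and Calcrl higher in SNL mice, against 12.1% of all genes (5.48% lower and 6.67% higher). The groups did not overlap for 3 of 7 members, Calcb, Calcrl and Ramp2, a share near the 45.8% of all genes for which this held. The plot of each mouse's values shows how far apart the groups lay.

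**Figure D1:**
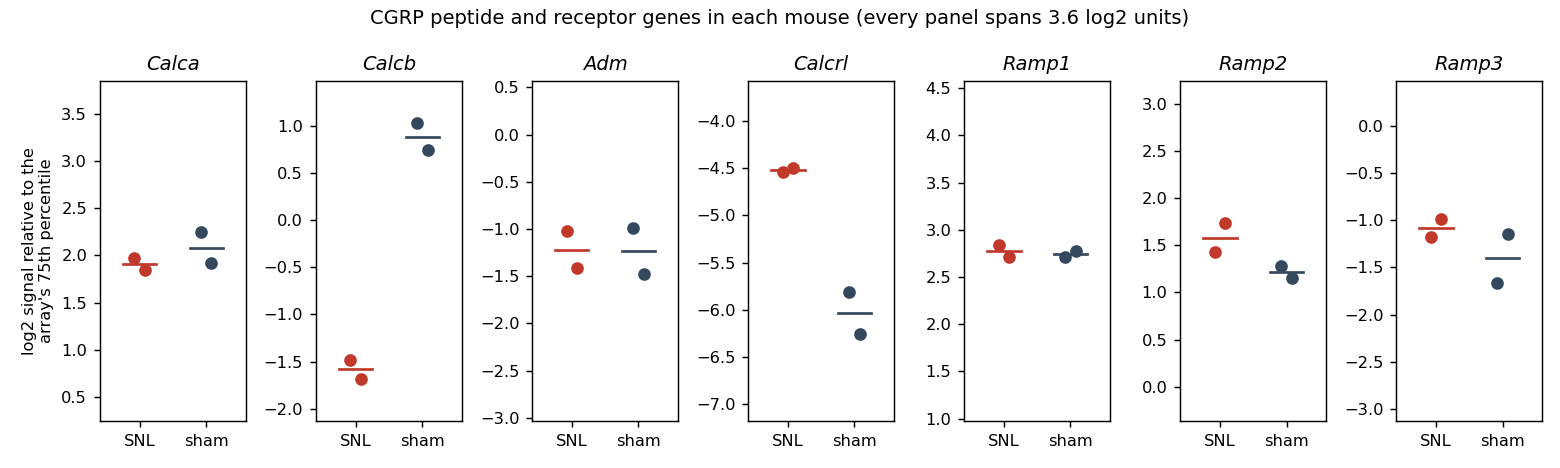
Log2 signal of the 7 genes relative to the 75th percentile of the array (vertical axis) in each of 2 SNL and 2 sham mice (points), with group means as bars; every panel spans the same range. Calcb sits at -1.48 and -1.68 in SNL mice, below 1.03 and 0.74 in sham mice, and Calcrl is the other gene with widely separated groups, at -4.54 and -4.50 in SNL mice and -5.82 and -6.26 in sham mice.

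Calcb, the beta-CGRP gene, was much lower after ligation. Its processed signal was 4238 and 4070 in SNL mice, against 26060 and 20248 in sham mice. On the log2 scale these are -1.48 and -1.68 in SNL mice and 1.03 and 0.74 in sham mice. Both SNL mice lay far below both sham mice, and within each group the mice lay close together (SD 0.14 in SNL and 0.20 in sham mice, n = 2 each). The change was -2.47 ± 0.16 (SE), a 5.53-fold lower level, with a 95% interval of -2.92 to -2.01. It ranked 17 from the lowest change and 75 by p among 29114 genes, and narrowly missed the threshold (limma, adjusted p = 0.0668). Calcb passed in 3 of 13 alternative analyses, namely with normexp background correction (-2.24, adjusted p = 0.0218), with no filter on dim probes (-2.47, adjusted p = 0.0447) and with a trended, robust variance estimate (-2.47, adjusted p = 0.00145). With no filter its SE was no smaller, 0.160 against 0.157, while 1231 genes were called over the array against 50, so that pass adds nothing about Calcb itself. Over all 13 the adjusted p ran from 0.00145 to 0.496 and the change from -2.61, which was the value without sham mouse 2, to -2.24.

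Calca, the alpha-CGRP gene, showed no such difference. Its CGRP probe was at 1.97 and 1.84 in SNL mice, against 2.25 and 1.91 in sham mice. The groups overlapped, since sham mouse 2 lay between the SNL mice. The change was -0.18 ± 0.16 (SE, n = 2 per group; limma, adjusted p = 0.714), and its 95% interval of -0.64 to 0.28 does not reach the -2.47 of Calcb. The second Calca probe, for the calcitonin transcript, stood well above background on the arrays of SNL mouse 2 and sham mouse 2 only. It was at -7.73 and -6.42 in SNL mice, against -7.85 and -7.32 in sham mice, so the splice form that encodes calcitonin was at the edge of detection on these arrays. Averaging both probes, which mixes these transcripts, puts Calca at 0.17 in place of -0.18. The CGRP probe was at -0.35 without sham mouse 2, at -0.0083 without sham mouse 1 and at -0.016 with normexp correction.

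The unequal change of the CGRP genes was measured within each mouse by subtracting the Calca from the Calcb log2 signal. Only the shift of this quantity between groups has a meaning, because the probes differ in brightness. It was -3.45 and -3.53 in SNL mice, against -1.22 and -1.17 in sham mice, a shift of -2.29. The mice of a group differed very little (SD 0.054 in SNL and 0.034 in sham mice). Permuting the mice exactly (two-sided, n = 2 per group) gave p = 0.333, which is the smallest p these 4 mice allow. With 1 mouse left out the shift ran from -2.33 to -2.25.

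Adm encodes adrenomedullin, a dilator peptide of vessels and other tissues. It was at -1.02 and -1.42 in SNL mice, against -0.99 and -1.47 in sham mice. The SNL mice lay inside the range of the sham mice. The change of 0.013 ± 0.25 (SE, n = 2 per group; limma, adjusted p = 0.990) has a 95% interval of -0.70 to 0.72 and bounds it no more tightly. Its sign was negative in 5 of 13 alternatives, among them normexp correction (-0.095), quantile normalization (-0.021) and leaving out sham mouse 2 (-0.23).

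Calcrl, which encodes the shared receptor core, was higher after ligation. Its processed signal was low on all 4 arrays, 509.5 and 580.1 in SNL mice against 226.8 and 158.2 in sham mice, but well above background on each. On the log2 scale it was at -4.54 and -4.50 in SNL mice and at -5.82 and -6.26 in sham mice. The SNL mice were nearly alike, and both lay above both sham mice. The change was 1.52 ± 0.19 (SE, n = 2 per group), or 2.87-fold, with a 95% interval of 0.98 to 2.06, and it did not pass (limma, adjusted p = 0.142). It stayed between 1.20 and 1.74 over 13 alternatives, with adjusted p from 0.0551 to 0.524, and passed in 0 of them. Without sham mouse 2 it was at 1.30.

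Ramp1, the partner that makes the CGRP receptor, was read by 3 probes that disagreed. The exon-joining probe, the brightest of them, was at 2.84 and 2.71 in SNL mice, against 2.71 and 2.77 in sham mice. The groups overlapped (0.037 ± 0.10, SE; limma, adjusted p = 0.914), and the 95% interval was -0.26 to 0.34. This interval holds for that probe only and does not bound the change of Ramp1. The second probe of the same transcript variant was at -2.56 and -2.48 in SNL mice, against -1.87 and -1.84 in sham mice. Both SNL mice lay below both sham mice on this probe (-0.67 ± 0.10, SE; limma over probes, adjusted p = 0.183). The variant 3 probe was at -1.53 and -1.36 in SNL mice, against -1.78 and -1.71 in sham mice, the opposite direction (0.30 ± 0.12, SE; adjusted p = 0.448). None of the 11 probes of these genes passed over the 44313 probes tested, of which 0.153% did. Within each mouse, the second variant 1 probe shifted against the variant 3 probe by -0.96, with SDs of 0.059 in SNL and 0.031 in sham mice, and the exact two-sided permutation p of 0.333 is the smallest possible. Ramp1 as a whole therefore has no single direction: averaging its probes gave -0.11, and the exon-joining probe was at -0.090 with quantile normalization and at 0.21 with normexp correction. Without sham mouse 2 the exon-joining probe was at 0.070.

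Ramp2, the partner that makes an adrenomedullin receptor and is rich in vessels, was at 1.43 and 1.73 in SNL mice, against 1.28 and 1.15 in sham mice. The groups did not overlap, but the gap was small beside the spread (0.36 ± 0.15, SE; limma, adjusted p = 0.470). With normexp correction the change was 0.11, without SNL mouse 2 it was 0.21 and without sham mouse 2 it was 0.30. Ramp3, the other adrenomedullin partner, was at -1.18 and -0.99 in SNL mice, against -1.66 and -1.15 in sham mice. Sham mouse 2 lay between the SNL mice (0.32 ± 0.22, SE; limma, adjusted p = 0.636). Without sham mouse 1 the change was 0.063, and without sham mouse 2 it was 0.58. Both overlapping Ramp3 probes gave nearly the same change, 0.30 and 0.32.

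**Figure D2:**
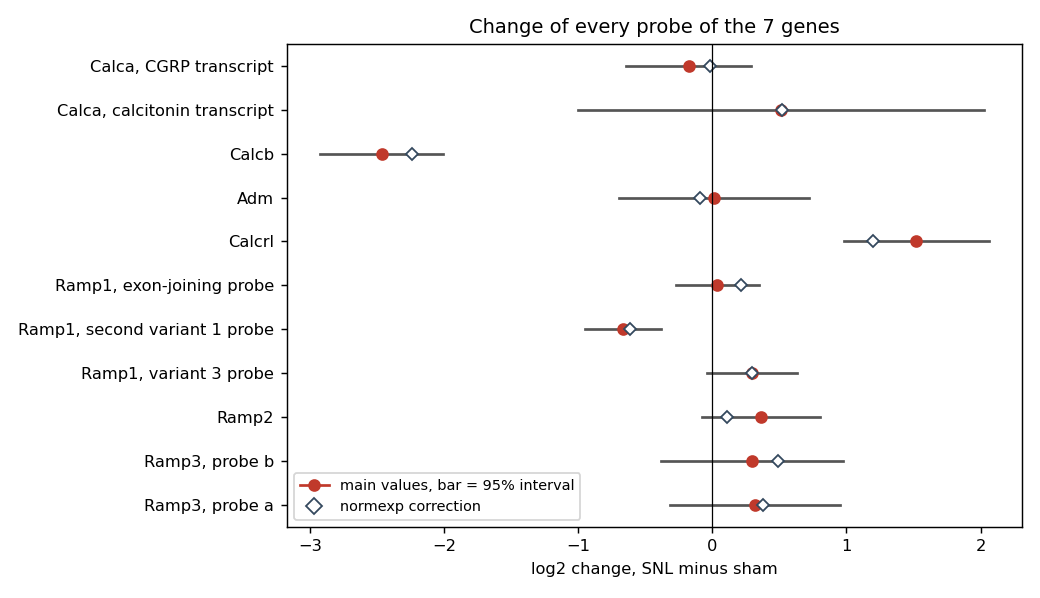
Log2 change, SNL minus sham, of all 11 probes of the 7 genes (horizontal axis), as filled points with 95% intervals from limma over probes and as open diamonds after normexp background correction. The Calcb and Calcrl intervals lie away from 0 on opposite sides, as does that of the second Ramp1 probe below 0, the 3 Ramp1 probes spread from -0.67 to 0.30, and the calcitonin probe of Calca has the widest interval.

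The wider pathway was described by 3 lists beside the same counts over all genes, whose median change was 0.028. Other ligands and receptors of the calcitonin family numbered 5, of which 0 passed over all genes, with a median of 0.30 in limma. At an unadjusted p under 0.05, 1 was higher and 1 lower, against 6.67% higher and 5.48% lower among all genes. The lower gene was Ackr3, which encodes a scavenger receptor that also takes up adrenomedullin, at -1.58 and -1.70 in SNL mice against -1.14 and -1.25 in sham mice (-0.44 ± 0.11, SE; adjusted p = 0.294). With normexp correction Ackr3 was at -0.21. The higher gene was Crcp, whose product is named a component of the CGRP receptor (0.33 ± 0.10, SE; adjusted p = 0.368), at 0.54 with normexp correction. Adm2, the adrenomedullin 2 gene, and Calcr, the calcitonin receptor gene, were at 0.30 and 0.35 (limma, adjusted p = 0.507 and 0.552). Their groups did not overlap, which held for 45.8% of all genes.

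Genes that cut, amidate, store or degrade peptides were near 0. Of 17 on this list 16 were tested, and Scg5 was left out because an outlier spot removed 1 of its 4 values. In limma 0 of 16 passed over all genes, and 0 did at an unadjusted p under 0.05. Changes ran from -0.27 to 0.30 with a median of 0.048. Those with the smallest p were the carboxypeptidase gene Cpd (-0.24), the proSAAS gene Pcsk1n (0.30, or 0.16 with normexp correction), the convertase gene Pcsk5 (0.22) and the endothelin-converting enzyme gene Ece2 (-0.20). Genes of Gs and cyclic AMP signalling were likewise near 0: of 25, limma called 0, 1 was higher and 0 lower at an unadjusted p under 0.05, and the median was -0.029. The higher gene was Crem, a transcription factor of the cyclic AMP response, at 0.24 and 0.37 in SNL mice against -0.14 and -0.31 in sham mice (0.54 ± 0.12, SE; adjusted p = 0.267). Averaging the Crem probes gave 0.32. The phosphodiesterase gene Pde4c, the Gs gene Gnas and the adenylyl cyclase gene Adcy7 were at 0.39, 0.21 and 0.31, with Adcy7 at 0.17 after normexp correction and Gnas at -0.023 when its probes were averaged.

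Marker lists of cells known to make these peptides or receptors were measured in the same arrays. The lists were chosen with earlier results of these data known, so their counts are a description and no test of enrichment. Of 15 motor neuron genes, 14 were well above background in both groups. Of these 14, 1 fell by the limma test over all genes, Chodl, and 8 were lower and 0 higher at an unadjusted p under 0.05. Among all 28202 genes measured in both groups, 4.85% were lower and 6.72% higher by that rule. Chodl, a marker of fast motor neurons, was at -2.73 and -2.79 in SNL mice against 1.18 and 0.97 in sham mice (limma, adjusted p = 0.0371). The homeobox gene Mnx1 did not stand well above background in any SNL mouse and was kept only through the sham arrays, so it is outside these counts and its adjusted p of 0.0402 supports nothing here. It was at least 15.6-fold lower in SNL mice, and the bound takes each dim SNL array at the lowest signal well above its background. Uts2, the urotensin gene, was at -2.19 ± 0.12 (SE; limma, adjusted p = 0.0509). Among the alternatives, Uts2 passed when only genes well above background on all 4 arrays were tested (adjusted p = 0.0396). It also passed with normexp correction (adjusted p = 0.0362) and, where 1231 genes were called, with no filter on dim probes (adjusted p = 0.0447). Uts2 did not pass with quantile normalization (adjusted p = 0.0648). Chodl did not pass with quantile normalization, with a replicate block or with 1 mouse left out. Outside the naming rule and chosen after their values were seen, Chat, the enzyme gene that defines cholinergic neurons, was at -0.73 ± 0.14 (SE; adjusted p = 0.227) and Prph, an intermediate filament gene of motor and sensory neurons, at 0.078 ± 0.14 (SE; adjusted p = 0.862). The list's summed signal was 30.1 and 26.5 in SNL mice, against 42.1 and 38.6 in sham mice, in units of the 75th percentile signal, and the median change was -0.54 over the 14 genes, or -0.73 with Mnx1 counted at its bound. The level of Calcb was lower together with this list, and the part of the list's shift in the Calcb value was not tested. In bulk cord, fewer cells of a type and less RNA per cell cannot be told apart.

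Sensory ganglion neurons are the main source of CGRP peptide in the dorsal horn. Of their 12 markers, 3 that define nociceptors, Scn10a, Mrgprd and Mrgprx1, stood well above background on 0 of 4 arrays, and 9 were tested. The median change of the 9 was 0.050 and limma called 0 of them, with 0 at an unadjusted p under 0.05. Those with the smallest p were the heat channel gene Trpv1 (0.59 ± 0.25, SE), P2rx3 (0.16 ± 0.099) and Avil (0.23 ± 0.15), and averaging the P2rx3 probes gave -0.084. Most of their summed signal came from Nefh, a neurofilament gene that cord neurons also express and that is named here outside the naming rule. Without Nefh the sum over 8 genes was 1.92 and 2.42 in SNL mice against 2.08 and 2.05 in sham mice.

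Endothelial and mural cells are known sites of the adrenomedullin receptor. The endothelial list had a median change of -0.21 over 13 genes and the mural list -0.32 over 10, and limma called 0 in each. At an unadjusted p under 0.05, 6.67% of all genes were higher and 5.48% lower. By that rule the endothelial list had 1 higher, Ly6c1 (0.52), and 1 lower, the angiopoietin receptor gene Tek (-0.64). The mural list had 1 lower, the pericyte gene Rgs5 (-0.33, or -0.15 with normexp correction). Next by p were Tie1 (-0.74), which encodes an endothelial receptor kinase, and in the mural list the smooth muscle myosin gene Myh11 (-0.31) and the potassium channel gene Kcnj8 (-0.66). Summed endothelial signal was 22.7 and 25.4 in SNL mice against 24.8 and 24.0 in sham mice, and summed mural signal was 15.1 and 15.1 in SNL mice against 18.2 and 16.4 in sham mice. The part of either vessel list in the receptor gene values was not tested. Microglial markers were above 0 for 8 of 8 genes, against 15974 of all 29114 genes, with a median of 0.58. In limma 0 of these markers were called, and 7 were higher at an unadjusted p under 0.05, against 6.67% of all genes. Their summed signal was 44.0 and 38.2 in SNL mice against 25.9 and 26.3 in sham mice. Calcrl was higher together with this list. Schwann cell markers were also above 0 for 6 of 6 genes, with a median of 1.49, and their summed signal was lowest in sham mouse 2, as Calcrl was. Below 0 were 11 of 13 endothelial and 9 of 10 mural genes, against 13140 of all 29114 genes. The part of the microglial or Schwann cell list in the Calcrl value was not tested.

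**Figure D3:**
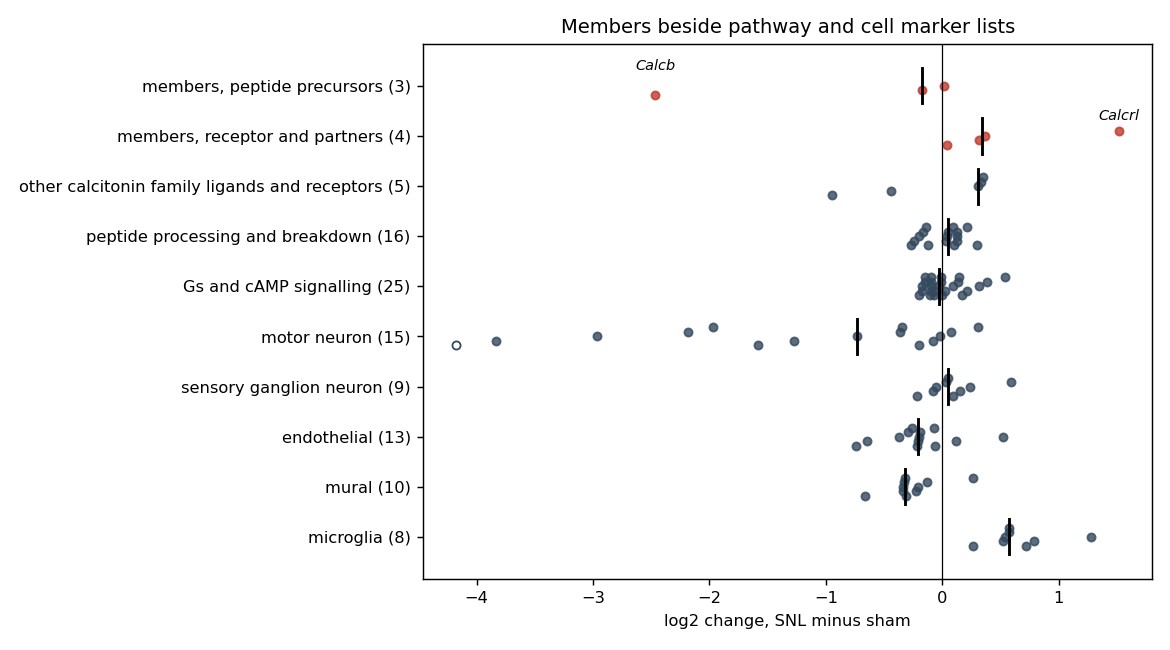
Log2 change, SNL minus sham, of single genes (points) in the member groups, 3 pathway lists and 5 marker lists, with the number of genes tested in brackets and list medians as black bars. The open point is Mnx1, which was not well above background in SNL mice, so its place is no measured change. The motor neuron markers measured in both groups span -3.84 to 0.31 with a median of -0.54. Calcb at -2.47 lies within this wide span, but so do Calca, Adm and Ramp1, so its place there does not tie it to the list. The processing and cyclic AMP genes cluster about 0, and Calcrl at 1.52 lies above all genes of the lists shown.

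For Calcb and Calcrl, the members with groups that did not overlap and a change of at least 1 in log2 size, the 5 named genes with the nearest profile over the 4 arrays were listed. Likeness was the Euclidean distance between log2 values after subtracting each gene's mean, among 17384 named genes, and 4 arrays allow only a coarse match. Nearest to Calcb were Klra8 (distance 0.058) and Uts2 (0.30). Klra8 encodes a natural killer cell receptor of a family with similar sequences, so which member its probe reads is uncertain, and averaging its probes gave -1.56 against -2.44 for the brightest. The other genes found for Calcb, Wfdc6b, Tprg and Ttc24, were too dim to stand well above background in SNL mice and were kept only through the sham arrays, so no distance or rank is given for them. They were at least 2.23-fold, 4.17-fold and 1.89-fold lower in SNL mice. Nearest to Calcrl were Bcl2a1d (0.051), the cytokine gene Il1a (0.066), Bcl2a1c (0.099), the lipase gene Liph (0.11) and Cd86 (0.14), which encodes a ligand that costimulates T cells. Bcl2a1d and Bcl2a1c are near-identical copies that the array may not separate.

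**Figure D4:**
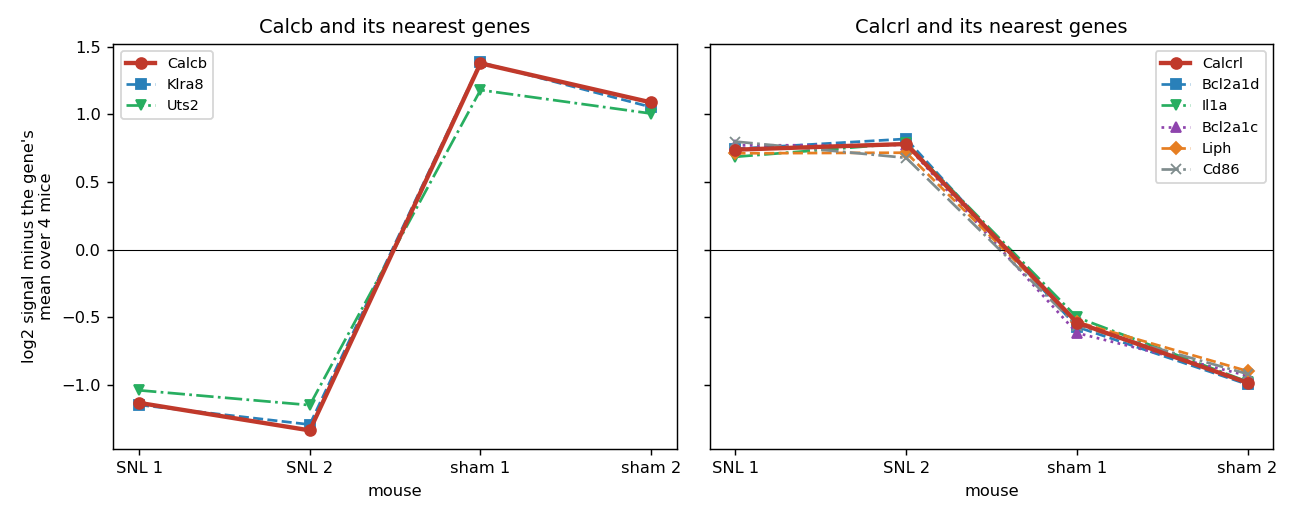
Log2 signal of Calcb (left) and Calcrl (right) minus each gene's mean over 4 mice, with the nearest named genes that were well above background in both groups; lines only join the points of a gene and give the mice no order. That the genes run with the member follows from how they were chosen; in the Calcrl panel sham 2 is the lowest mouse for all 6 genes.

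The plot of settings gives each member's change under 13 alternatives. Calcb kept a negative sign in 13 of 13 and Calcrl, Ramp2 and Ramp3 a positive sign in 13 of 13. The sign was reversed for Calca in 1, for Ramp1 in 3 and for Adm in 5.

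**Figure D5:**
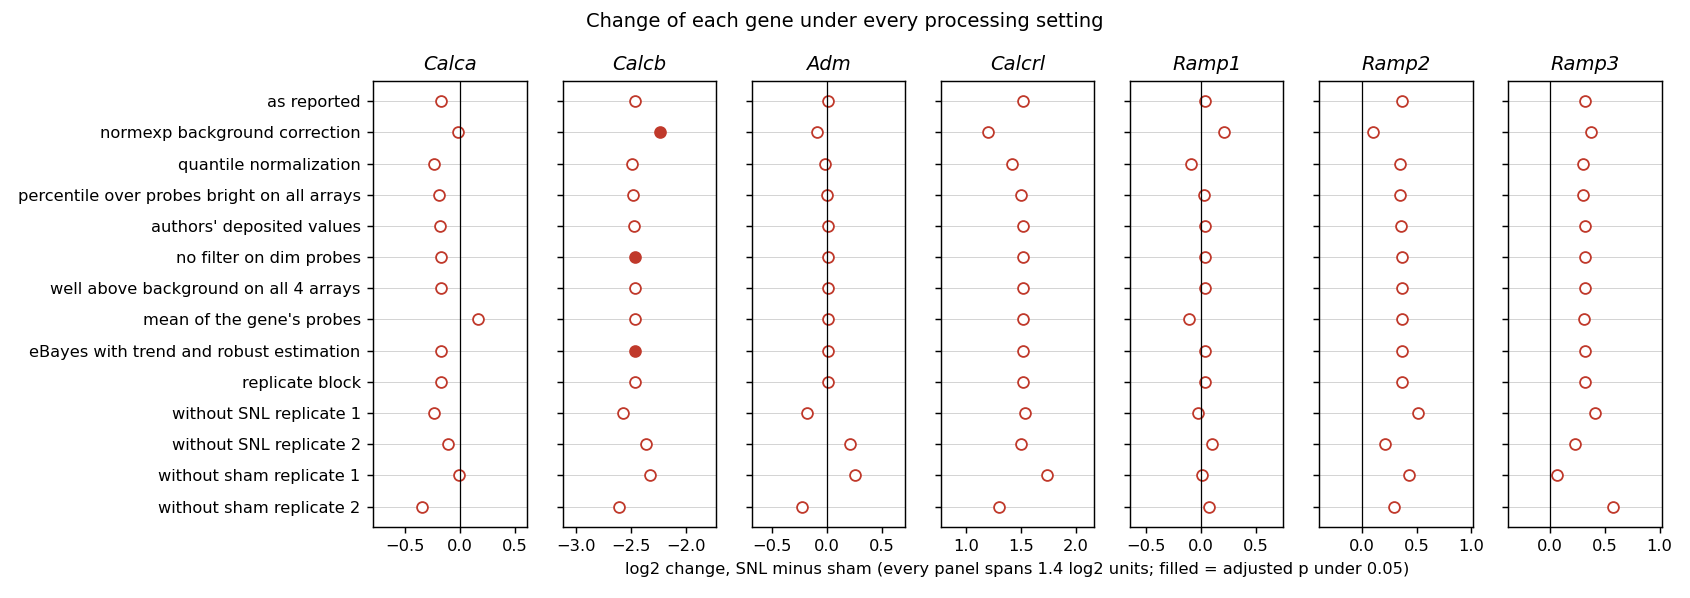
Log2 change, SNL minus sham, of each of the 7 genes as reported and under 13 alternative settings (rows), with filled points for an adjusted p under 0.05; every panel spans the same range. Calcb has the 3 filled points, and the points of Adm and Ramp1 fall on both sides of 0.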

How the data were processed

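Cy3-labelled RNA of each mouse was hybridised to 1 Agilent array. Agilent Feature Extraction turned the scans into linear spot intensity values, which the authors deposited. Its version reads 10.7.3.1 in the file headers but 10.7.1.1 in the submitters' processing notes. The authors' deposited table of log2 values, used as an alternative, matched the scanner values at a correlation that rounds to 1. It lay 0.122 to 0.132 above them in the median, with column medians of -3.49 and -3.34 for SNL and -3.46 and -3.53 for sham. It keeps their scale and direction with no centring per gene, and over which spots it was scaled is unknown.

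Each spot was expressed as log2 of its processed signal less the log2 75th percentile of the 59305 non-control spots on its array. Outlier spots were left out, spots of a probe averaged, probes kept if well above background on at least 2 arrays with a value on all 4, and a gene represented by its brightest probe. Of 55681 probes, 26762 took a symbol through their accession in a RefSeq table (GRCm38), 3819 by symbol and 639 by synonym. The test was limma's (version 3.58.1, R 4.3.3; lmFit, eBayes, no covariate), with p-values adjusted over all genes. With 2 residual and 1.66 prior degrees of freedom, the number of arrays limits precision. The fit was run on simulated data only to check that its median estimates returned the changes put in. That check set no condition on power or false calls.

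The members and lists were chosen with earlier results of these data known. Named genes were the members, the 4 genes of smallest p per pathway list, the 3 of smallest p in the motor neuron, sensory, endothelial and mural lists, and 5 genes nearest in profile. Alternatives were another background correction, normalization, filter, probe rule, variance model, a replicate block and leaving out each mouse. Same-numbered mice of the 2 groups did not deviate together (r = -0.027 over genes), and the main test did not pair them. This r cannot show that no pairing exists. Arrays numbered 1 lay in slide column 1 and those numbered 2 in column 2, so the replicate block is also a block for slide column.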

Additional observations from a re-analysis of the deposited data

How the results depend on the processing

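The genes called over the whole array, 50 as reported, numbered 133 with normexp correction, 11 with quantile normalization, 30 with the percentile over probes bright on all arrays, 1231 with no filter on dim probes, 559 with a trended, robust variance, and 0 with a replicate block on the label numbers or with any 1 mouse left out (0 to 0). In the same settings the called genes of the pathway and marker lists, members included, 2 as reported (Chodl, and Mnx1, kept only through sham arrays), were 5, 0, 2, 9, 14, 0 and 0. Of the 7 members 1, Calcb, passed with normexp correction (-2.24), with no filter (-2.47) and with the variance trend (-2.47), and 0 passed in the other settings, the replicate block among them, where Calcb had an adjusted p of 0.196 at -2.47. Signs were reversed for Adm with normexp correction (-0.095), quantile normalization (-0.021) and the percentile over bright probes (-0.0022), for Ramp1 with quantile normalization (-0.090), and as the mean of a gene's probes for Ramp1 (-0.11), Calca (0.17), Gnas (-0.023) and P2rx3 (-0.084). With 1 mouse left out Adm ran from -0.23 to 0.25 and Ramp1 from -0.029 to 0.10. List medians near 0 also took the other sign, for peptide processing with normexp correction (-0.031) and quantile normalization (-0.028), for cyclic AMP signalling with normexp correction (0.039) and for sensory markers with quantile normalization (-0.061). The cause of these changes was not tested. Leaving out a mouse leaves an arm with 1 sample, assumed to vary like the other group. A block for slide or scan was not run, since there was 1 of each.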

Other observations

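Calca and Calcb are neighbours on chromosome 7, and in the RefSeq gene table for GRCm38 only pseudogenes lie between them. The protein-coding genes on either side, picked by position and outside the naming rule, gave no change past the threshold in limma. On the Calca side, Cyp2r1 was at 0.19 ± 0.29 (SE, adjusted p = 0.840) and Pde3b at 0.29 ± 0.14 (adjusted p = 0.531). On the Calcb side, Insc was at -0.21 ± 0.16 (adjusted p = 0.658) and Sox6 at -0.41 ± 0.14 (adjusted p = 0.399), with Sox6 at -2.89 and -2.75 in SNL mice against -2.30 and -2.54 in sham mice. None of these 4 changes came near the -2.47 of Calcb in size.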
